A study of Mus musculus with 8 samples.

Results

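The 10 genes described here are factors of the circadian clock: Arntl (also written Bmal1), Clock, Npas2, Per1, Per2, Per3, Cry1, Nr1d1, Nr1d2 and Dbp. They were taken by symbol from a table of 17164 genes measured by RNA sequencing of whole mouse liver, and all 10 were in it. The study asked how Diwu Yanggan capsules (DWYG), a herbal preparation, act in a chemically induced liver cancer model. It used 24 male C57BL/6 mice in 4 groups of 6, and 2 livers chosen at random from each group were sequenced, which gave 8 libraries.

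Control mice had saline at 2 weeks of age and none of the agents below, as far as the labels say. Model mice had diethylnitrosamine (DEN, 0.67%), a DNA-damaging carcinogen, injected into the abdomen at 2 weeks. From 8 weeks to the end they also had carbon tetrachloride (CCl4, 20% in olive oil), which injures hepatocytes. DWYG-M and DWYG-H mice had the same DEN and CCl4 and, from 17 weeks, DWYG at 1 or 2 multiples of the clinical equivalent dose. All mice were killed at 22 weeks. The sources used here do not give the hour of the day at which each liver was taken, the feeding state, or whether the piece of liver held tumour. Beyond the saline at 2 weeks, no vehicle in place of CCl4 is described for the controls.

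The mammalian clock is a loop of transcription that takes about a day to run. ARNTL pairs with CLOCK or its relative NPAS2 and switches on the Per, Cry, Nr1d and Dbp genes through short DNA motifs called E-boxes. PER and CRY proteins then hold that pair back, while NR1D1 and NR1D2 (REV-ERB alpha and beta) repress Arntl, Npas2 and Cry1 through ROR response elements. DBP, with its relatives TEF and HLF, acts on D-box motifs in output genes and in Per genes, and NFIL3 acts against it there. In liver, Dbp and the Nr1d genes peak at a part of the day when Arntl and Npas2 are low, so the balance between those sets depends on the hour of sampling.

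The motifs were looked for in RefSeq promoter windows of 300 bases on GRCm38.p6, an assembly that differs from the one the authors used. Windows were found for 9 of the 10 genes, 13 windows in all; Per2 had none. The stretches below hold the matches of the 4 motifs and are shown because they are elements of the kinds through which the loop is known to act. Capitals mark the motif: the E-box CACGTG, its variant CACGTT (read as AACGTG on the other strand), the D-box TTATGTAA, or the ROR element. Both strands were searched, TTACGTAA was counted as a D-box too, and the motifs shown do not share bases.
Arntl, ROR element, chr7:113207529-113207555, plus strand: gaaggcagAAAGTAGGTCAgggacgga
Cry1, E-box, chr10:85185094-85185129, minus strand: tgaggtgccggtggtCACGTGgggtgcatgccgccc
Cry1, E-box variant, chr10:85185113-85185148, minus strand: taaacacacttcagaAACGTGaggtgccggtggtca
Per1, E-box, chr11:69098768-69098803, plus strand: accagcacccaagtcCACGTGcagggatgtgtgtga
Nr1d1, E-box variant, chr11:98775385-98775420, minus strand: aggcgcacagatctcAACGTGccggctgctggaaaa
Per3, first D-box, chr4:151044848-151044885, minus strand: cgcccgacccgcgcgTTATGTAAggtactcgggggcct
Per3, second D-box, chr4:151044801-151044838, minus strand: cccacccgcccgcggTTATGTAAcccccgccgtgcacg

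Among all 32851 promoter windows, 7.15% held the E-box, 4.68% its variant, 1.06% a D-box and 0.384% a ROR element. The Arntl element lies just after the annotated start, and the other stretches lie before it. The match of a motif describes the sequence only. Where no match was found, as for Npas2, Clock, Nr1d2 and Dbp, these letters are absent from that window, and elements further away were not searched.

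Reads assigned to genes numbered 17345627 to 19191382 per library. FPKM (reads scaled to gene length and to library size) is used below for levels, and differences were tested on read counts with edgeR's quasi-likelihood test, with p-values adjusted by the Benjamini-Hochberg method over the 11606 genes that reached 1 FPKM in 2 or more libraries. An adjusted p under 0.05 is a call. The liver label was borne out by hepatocyte markers, whose summed FPKM ran from 63420 to 101405 per library, with 0 of 9 called in any comparison. Markers of other cells were compared between model and control, where 15.1% of all genes were called higher: 7 of 10 stellate and fibroblast markers, 6 of 6 tested cholangiocyte markers, 5 of 10 macrophage markers, 2 of 3 tested neutrophil markers, 1 of 3 tested lymphocyte markers and 0 of 8 endothelial markers were called higher. Summed stellate FPKM was 103 and 105 in control, 346 to 373 in the model and 228 to 282 with DWYG. The neutrophil genes Ly6g and Mpo, which were too low to be tested, were listed at 0 in both control livers. They did not exceed 0.32 and 0.30 FPKM in any liver. The part of these cells in the clock values was not tested. In whole tissue, fewer cells of a type and less RNA per cell cannot be told apart.

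The clock genes varied far more from liver to liver than most genes. Npas2 spanned 48.9-fold between its lowest and highest library, Dbp 25-fold, Per1 16.3-fold and Arntl 9.47-fold. Nr1d1 spanned 5.64-fold, Nr1d2 5.12-fold, Per3 4.92-fold and Cry1 3.70-fold, while Clock and Per2 moved least, at 2.23-fold and 2.01-fold. The median log2 ratio of highest to lowest library was 2.40 over the 10 genes and 0.82 over all genes tested. All 10 passed the filter on low values. For Npas2, Per1 and Per3 that rested on the libraries where each is high: Npas2 was at or above 1 FPKM in 5 of 8 libraries, Per1 in 6 and Per3 in 3.

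**Figure D1:**
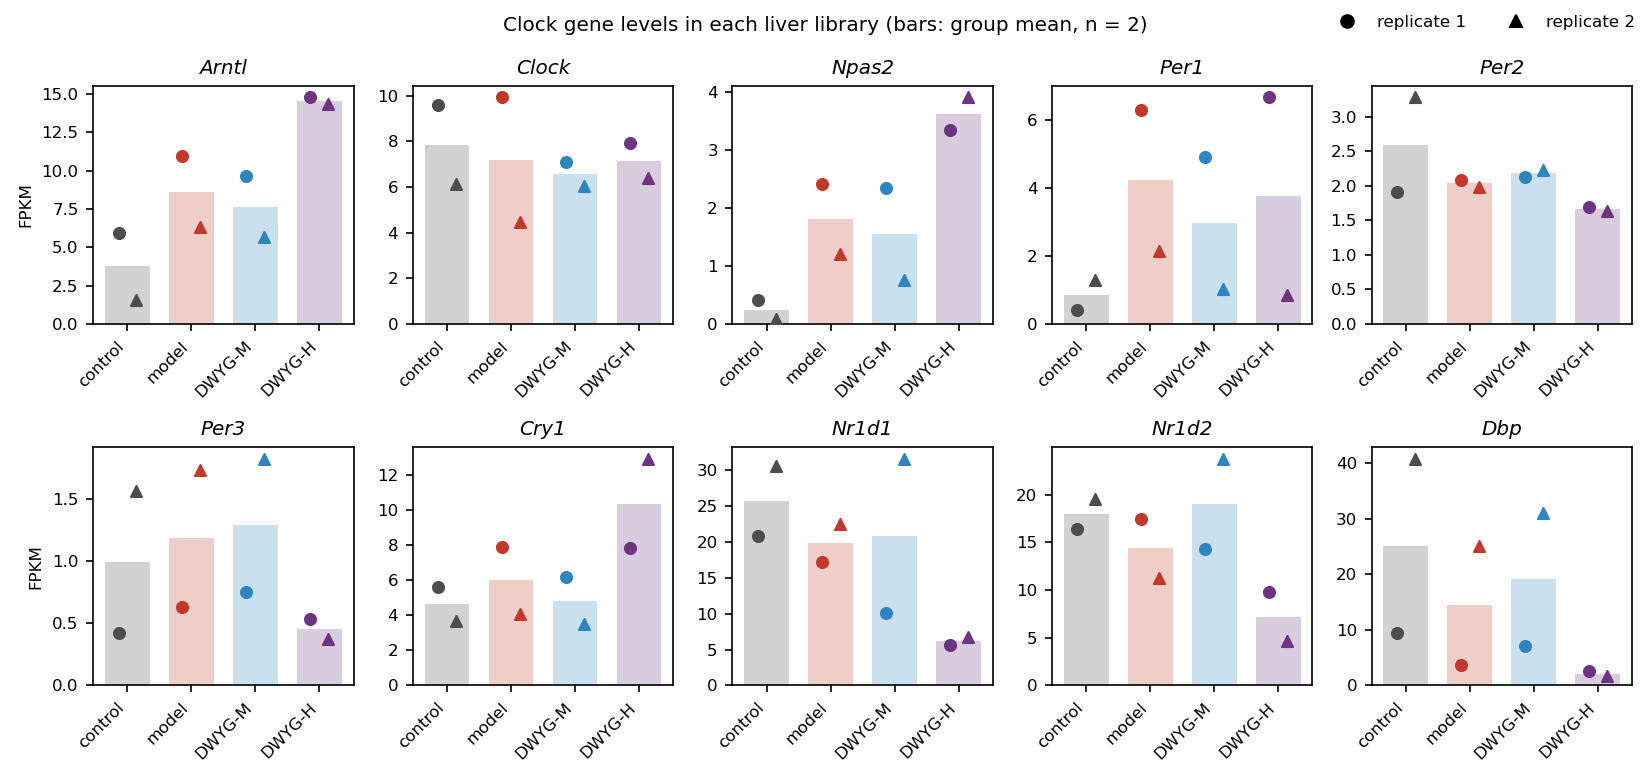
FPKM of each clock gene (vertical axis, linear from 0) in the 2 livers of each group (circle, replicate 1; triangle, replicate 2), with bars at the group mean. In DWYG-H both livers had high Arntl and Npas2 and low Nr1d1 and Dbp, whereas the Dbp values of the livers in each other group lay several-fold apart, at 9.43 and 40.8 in control.

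Arntl (Entrez gene 11865), the activator that the loop cannot run without, was at 5.95 and 1.56 FPKM in control livers 1 and 2, 10.9 and 6.32 in model livers, 9.63 and 5.65 in DWYG-M livers, and 14.8 and 14.4 in DWYG-H livers. Both DWYG-H livers stood above every other liver, and control liver 2 stood far below the rest. In FPKM, model livers did not overlap control livers, but model liver 2 (6.32) was close to control liver 1 (5.95). The library scaling used for the tests had factors of 1.00 and 0.925 for these 2 livers, so their order depends on the scale. The group means were 3.75 ± 3.10 FPKM in control, 8.63 ± 3.27 in model, 7.64 ± 2.81 in DWYG-M and 14.6 ± 0.297 in DWYG-H (SD, n = 2).

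Npas2 (Entrez gene 18143), which can stand in for CLOCK as the partner of ARNTL, was at 0.41 and 0.08 FPKM in control livers (26 and 5 reads), 2.41 and 1.2 in model livers, 2.34 and 0.75 in DWYG-M livers, and 3.35 and 3.91 in DWYG-H livers. Both control livers were the lowest and both DWYG-H livers the highest, with no overlap between either group and the rest. Clock (Entrez gene 12753), the usual partner, was at 9.6 and 6.11 FPKM in the control livers, 9.93 and 4.45 in the model livers, 7.08 and 6.04 with DWYG-M, and 7.91 and 6.38 with DWYG-H. Its groups overlapped in all 6 comparisons, and its level per gene length was above that of Npas2 in every library.

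The Nr1d genes encode the heme-binding repressors of Arntl. Nr1d1 (Entrez gene 217166) was at 20.8 and 30.5 FPKM in the control livers, 17.2 and 22.4 in the model livers, 10.1 and 31.6 with DWYG-M, and 5.6 and 6.75 with DWYG-H. Nr1d2 (Entrez gene 353187) was at 16.4 and 19.5 FPKM in the control livers, 17.5 and 11.3 in the model livers, 14.2 and 23.7 with DWYG-M, and 9.78 and 4.64 with DWYG-H. For both genes the DWYG-H livers were the lowest of the 8, and the other 3 groups overlapped one another.

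Dbp (Entrez gene 13170), an output factor that binds D-boxes, was at 9.43 and 40.8 FPKM in the control livers, 3.62 and 25.1 in the model livers, 7.02 and 31.1 with DWYG-M, and 2.59 and 1.63 with DWYG-H. In control, model and DWYG-M one liver had several times the Dbp of the other; in DWYG-H both were low. Per3 (Entrez gene 18628), whose promoter window holds a pair of D-boxes, was at 0.42 and 1.56 FPKM in the control livers, 0.63 and 1.73 in the model livers, 0.75 and 1.82 with DWYG-M, and 0.53 and 0.37 with DWYG-H. The 3 livers with Per3 above 1 FPKM were the 3 livers with the most Dbp.

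Cry1 (Entrez gene 12952), the repressor whose messenger comes late in the cycle and which carries both E-box forms in its window, was at 5.6 and 3.66 FPKM in the control livers, 7.91 and 4.05 in the model livers, 6.18 and 3.49 with DWYG-M, and 7.81 and 12.9 with DWYG-H. Its order was close to the reverse of that of Dbp. Per2 (Entrez gene 18627), a repressor that answers both to the loop and to outside signals, kept between 1.63 and 3.28 FPKM: 1.91 and 3.28 in the control livers, 2.09 and 1.98 in the model livers, 2.13 and 2.23 with DWYG-M, and 1.69 and 1.63 with DWYG-H. Control liver 2 was the highest and the DWYG-H livers were the lowest.

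Per1 (Entrez gene 18626), the repressor gene best known for acute induction by glucocorticoids and other signals, had a pattern of its own. It was at 0.41 and 1.28 FPKM in the control livers, 6.31 and 2.16 in the model livers, 4.93 and 1.04 with DWYG-M, and 6.68 and 0.84 with DWYG-H. One liver of each DEN plus CCl4 group was high, and in DWYG-H, where Arntl differed 1.03-fold and Dbp 1.59-fold between livers, Per1 differed 7.95-fold.

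Each liver gives a snapshot of where the activators stand against the outputs. The log2 ratio of Arntl to Dbp FPKM was -0.66 and -4.71 in the control livers, 1.60 and -1.99 in the model livers, 0.46 and -2.46 with DWYG-M, and 2.51 and 3.14 with DWYG-H. Control liver 2 thus had 26.1 times as much Dbp as Arntl, while DWYG-H liver 2 had 8.81 times as much Arntl as Dbp. The log2 ratio of Arntl to Nr1d1 was above 0 only in the DWYG-H livers, at 1.40 and 1.09, and ran from -4.29 to -0.06 in the other 6.

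The ratio of Npas2 to Per3 was also highest in both DWYG-H livers, with log2 values of -0.03 and -4.29 in the control livers, 1.94 and -0.53 in the model livers, 1.64 and -1.28 with DWYG-M, and 2.66 and 3.40 with DWYG-H. Cry1 to Per1 did not follow that order: it was 3.77 and 1.52 in the control livers, 0.33 and 0.91 in the model livers, 0.33 and 1.75 with DWYG-M, and 0.23 and 3.94 with DWYG-H. By the ratios of Arntl to Dbp and of Npas2 to Per3, model liver 1 and DWYG-M liver 1 lay nearer to the DWYG-H livers than to their own partners in the group. By Arntl to Nr1d1 this held for DWYG-M liver 1 (-0.06, partner -2.48) but not for model liver 1 (-0.65, partner -1.83), with the DWYG-H livers at 1.40 and 1.09. The labels give no hour of sacrifice for any liver, so sampling time and group cannot be told apart.

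**Figure D2:**
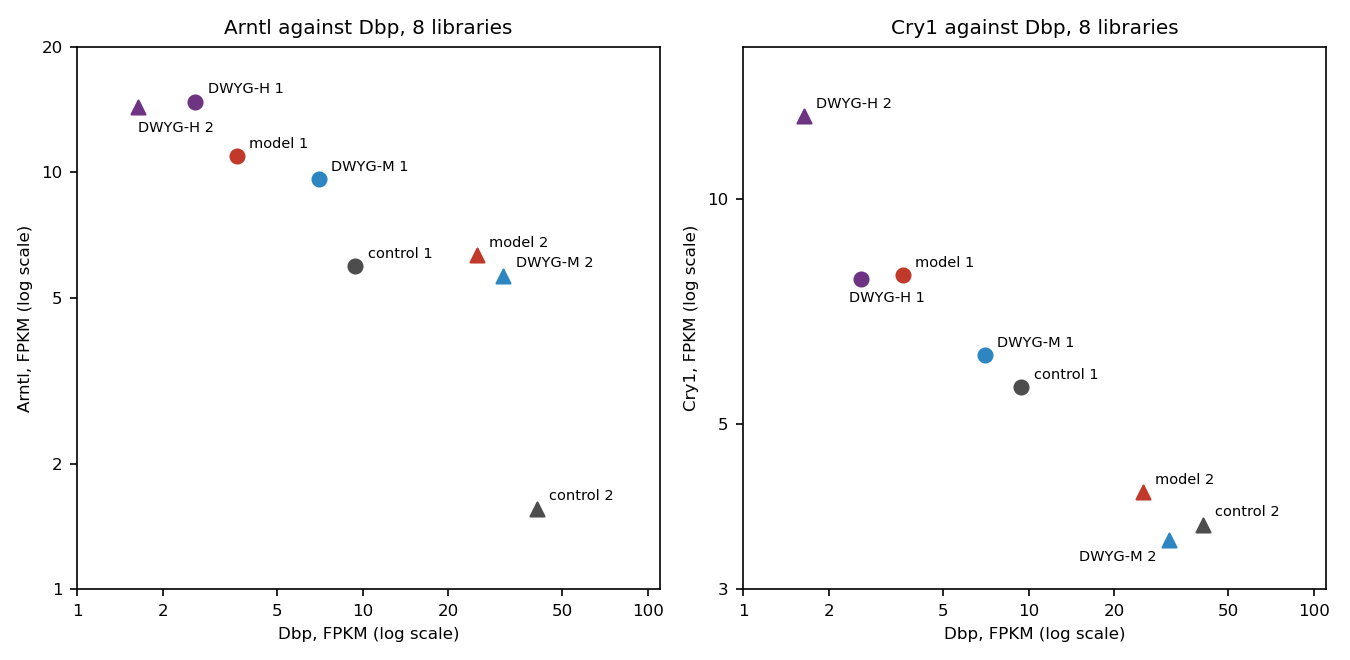
Arntl (left) and Cry1 (right) FPKM against Dbp FPKM, both axes on log scales, 1 point per library with its group and replicate. Points run from control liver 2 (Dbp 40.8, Arntl 1.56) to the DWYG-H livers (Dbp 2.59 and 1.63, Arntl 14.8 and 14.4), and livers of 1 group, such as model 1 and 2, sit far apart on the line.

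Across the 8 livers, Cry1 was lower where Dbp was higher, with Pearson's r of -0.974 and Spearman's rho of -0.952 on log2(FPKM + 0.1) (exact permutation p = 9.92e-05 and 0.00114). Arntl gave r of -0.862 and rho of -0.952 with Dbp (exact permutation p = 0.00129 and 0.00114), and Npas2 gave -0.823 and -0.929 (exact permutation p = 0.0121 and 0.00223). These activators and Cry1 were low where Dbp was high.

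Per3 went with Dbp, at r of 0.887 and rho of 0.786 (exact permutation p = 0.00823 and 0.0279), as did Nr1d1, at 0.886 and 0.929 (exact permutation p = 0.00623 and 0.00223). Per2 gave r of 0.758 and rho of 0.810 (exact permutation p = 0.0121 and 0.0218), and Nr1d2 gave 0.701 and 0.762 (exact permutation p = 0.0419 and 0.0368). Clock, at r of -0.519 and rho of -0.548 (exact permutation p = 0.191 and 0.171), and Per1, at -0.332 and -0.262 (exact permutation p = 0.403 and 0.536), did not pass an unadjusted threshold of 0.05.

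None of these 9 relations passed once adjusted over all 11605 genes set against Dbp: the Benjamini-Hochberg values lay between 0.758 and 0.777, and 0.758 was the smallest for any gene. With 8 libraries there are only 40320 orders, so even the smallest possible p could not pass for a lone gene among 11605. The adjustment therefore cannot decide on these relations. The median size of r with Dbp over all genes was 0.357, and 1.33% of genes reached 0.8 in either direction. Without the 2 livers farthest from the median of Dbp (control 2 and DWYG-H 2), r was -0.990 for Cry1, -0.906 for Arntl, -0.684 for Npas2, 0.827 for Per3, 0.813 for Nr1d1, -0.729 for Clock and -0.648 for Per1. It was 0.427 for Nr1d2 and 0.559 for Per2, so those 2 relations rest in part on the outer livers. With each group's mean taken out, r was -0.943 for Cry1, -0.861 for Arntl, -0.946 for Npas2, -0.852 for Clock and 0.976 for Per3, against 0.751 for Nr1d1, 0.492 for Per2, -0.229 for Per1 and 0.171 for Nr1d2.

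The spread between the 2 livers of a group was wider for the clock genes than for genes at large. The median absolute log2 difference between partners was 1.09 over the 10 clock genes and 0.23 over all genes in control. The corresponding values were 0.95 and 0.33 for the model livers, 0.99 and 0.18 for DWYG-M, and 0.36 and 0.20 for DWYG-H. Differences of at least 2-fold were found for 5 clock genes in control, 4 in model, 5 in DWYG-M and 2 in DWYG-H, where 3.56%, 7.88%, 3.35% and 3.50% of all genes reached that size. Dbp differed 4.32-fold between the control livers, 6.95-fold between the model livers and 4.43-fold between the DWYG-M livers. Between the DWYG-H livers it differed 1.59-fold.

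**Figure D3:**
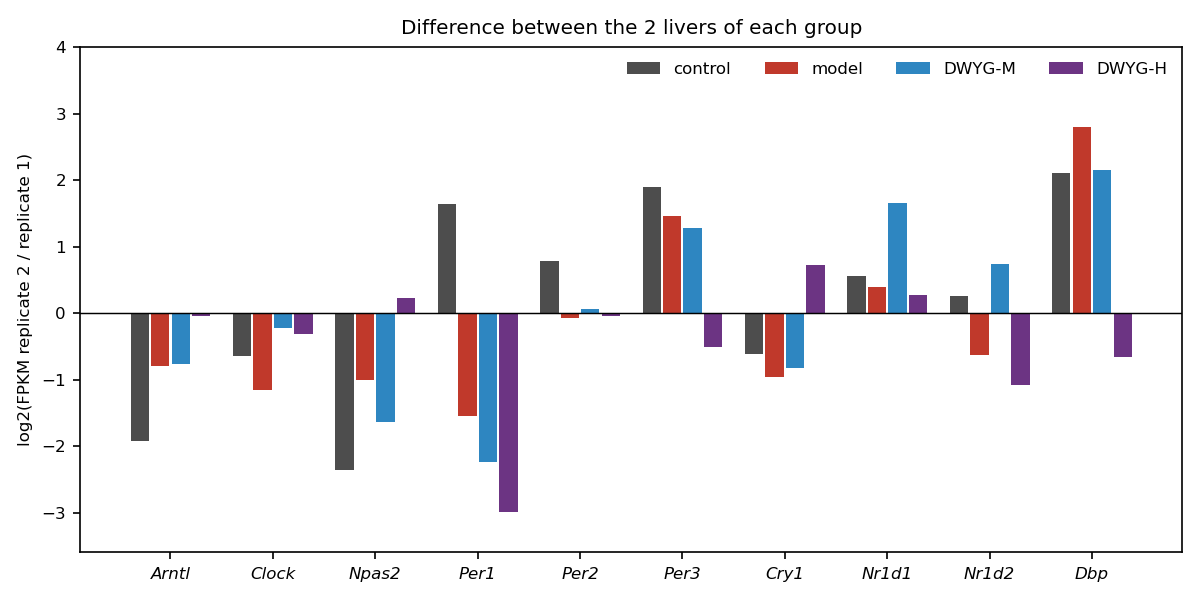
Log2 ratio of FPKM in replicate 2 to replicate 1 (vertical axis) for each clock gene, 1 bar per group. In control, model and DWYG-M, the liver with more Dbp and Per3 had less Arntl, Npas2, Clock and Cry1; in DWYG-H the bars for Arntl and Npas2 are near 0 and that for Per1 is the longest.

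Comparing the model with control, Npas2 was the 1 clock gene called: it rose by a log2 fold change of 2.56 ± 0.70 (SE), or 5.89-fold (edgeR, adjusted p = 0.0356, both model livers above both control livers). In this comparison 22.2% of all genes tested were called, 15.1% higher and 7.12% lower, so 1 of 10 is not above the background. Fits that leave out a liver of either group have 1 liver in that arm, so the other groups supply the spread and the lone liver is assumed to vary as they do. The direction of Npas2 held in all of them, with values from 1.84 to 4.05, but the call was lost without control liver 2 (1.84, edgeR adjusted p = 0.165), model liver 1 (2.11, adjusted p = 0.0948), DWYG-H liver 1 (2.53, adjusted p = 0.0594) or DWYG-H liver 2 (2.56, adjusted p = 0.0578).

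Arntl (log2 fold change 0.92 ± 0.52) and Per1 (1.99 ± 1.09) had higher values in the model, with edgeR adjusted p of 0.246 and 0.232. Arntl was 2.11 without control liver 1 (adjusted p = 0.0351, a call), 0.24 without control liver 2 and 0.57 without model liver 1, and with limma on TPM it was called too (1.47, adjusted p = 0.0399). Per1 was 3.10 without control liver 2 and 1.19 without model liver 1. Nr1d1 (-0.64 ± 0.48, adjusted p = 0.381), Nr1d2 (-0.62 ± 0.38, adjusted p = 0.286) and Dbp (-1.05 ± 1.03, adjusted p = 0.510) had lower ones by edgeR. Nr1d1 was -0.30 without control liver 2 and -0.36 without model liver 1. Per2 had a value of -0.63 ± 0.27 (edgeR, adjusted p = 0.139), which became 0.01 when limma was run on TPM, a scale on which the median gene stood at 0.50. Without control liver 1 it was -1.02 (edgeR adjusted p = 0.0268, a call), and without control liver 2 it was -0.14. Dbp became 0.41 without control liver 2, the liver with the most Dbp, -0.19 without model liver 1, -1.77 without control liver 1 and -3.23 without model liver 2. The FPKM of 3 clock genes (Arntl, Npas2, Per1) did not overlap between these groups, where 59.1% of all genes did not. The median absolute log2 fold change was 0.64 over the clock genes and 0.36 over all genes.

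Against control, the DWYG-H livers showed the most clock genes apart. Npas2 rose 12.6-fold (log2 fold change 3.65 ± 0.70, edgeR adjusted p = 0.0201), and Nr1d1 fell to 0.205 times the control level (-2.28 ± 0.51, edgeR adjusted p = 0.0350). These were 2 of 10 clock genes, where 7.69% of all genes were called, 6.59% higher and 1.09% lower. The rest missed the threshold by edgeR: Nr1d2 at -1.53 ± 0.39 (adjusted p = 0.0545), Arntl at 1.74 ± 0.52 (adjusted p = 0.0868), Dbp at -3.78 ± 1.20 (adjusted p = 0.101), Per2 at -0.86 ± 0.28 (adjusted p = 0.103), Cry1 at 0.96 ± 0.37 (adjusted p = 0.169) and Per3 at -1.38 ± 0.78 (adjusted p = 0.336). Per1 and Clock missed it too (edgeR adjusted p = 0.333 and 0.586), and the groups overlapped for both. The control livers moved several of these: without control liver 1, Arntl was 2.94 (adjusted p = 0.0425, a call), Per2 -1.25 (adjusted p = 0.0419, a call) and Per3 -2.07, and without control liver 2 they were 1.08, -0.36 and -0.07, with Dbp at -2.31. Cry1 was 0.57 without DWYG-H liver 2. Nr1d2 was called without DWYG-H liver 1 (-2.21, adjusted p = 0.0390). The groups did not overlap for 7 of the 10 genes (Arntl, Npas2, Per2, Cry1, Nr1d1, Nr1d2, Dbp), where 57.2% of all genes did not. The median absolute log2 fold change was 1.64 over the clock genes and 0.27 over all genes.

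Leaving out any 1 of the 4 livers compared ended both calls, with the folds still large. The Npas2 call was lost without control liver 1 (5.14, edgeR adjusted p = 0.0571), control liver 2 (2.95, adjusted p = 0.128), DWYG-H liver 1 (3.73, adjusted p = 0.0667) or DWYG-H liver 2 (3.55, adjusted p = 0.0705). The Nr1d1 call was lost without the same livers, at -2.58 (edgeR adjusted p = 0.0798), -1.93 (adjusted p = 0.177), -2.17 (adjusted p = 0.176) and -2.41 (adjusted p = 0.138). In these same fits the calls over all genes went from 892 to between 77 and 423, since 1 arm then holds a single liver.

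DWYG-M against control gave 0 called clock genes by edgeR, where 4.95% of all genes were called, 4.35% higher and 0.603% lower. Npas2 came nearest, at 2.42 ± 0.70 (edgeR adjusted p = 0.103), and passed with DESeq2 (adjusted p = 0.00216) and without DWYG-M liver 2 (3.02, edgeR adjusted p = 0.0465). It was the 1 clock gene with an unadjusted p under 0.05 and the 1 whose groups did not overlap, where 57.2% of all genes did not. The share of all genes with an unadjusted p under 0.05 was not counted, here or in the comparisons below. Arntl had a log2 fold change of 0.79 ± 0.52 (edgeR, adjusted p = 0.468), with 1.98 without control liver 1, 0.13 without control liver 2 and 0.33 without DWYG-M liver 1. Npas2 was 3.91 without control liver 1 and 1.38 without DWYG-M liver 1. The 3 comparisons with control share the control livers.

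**Figure D4:**
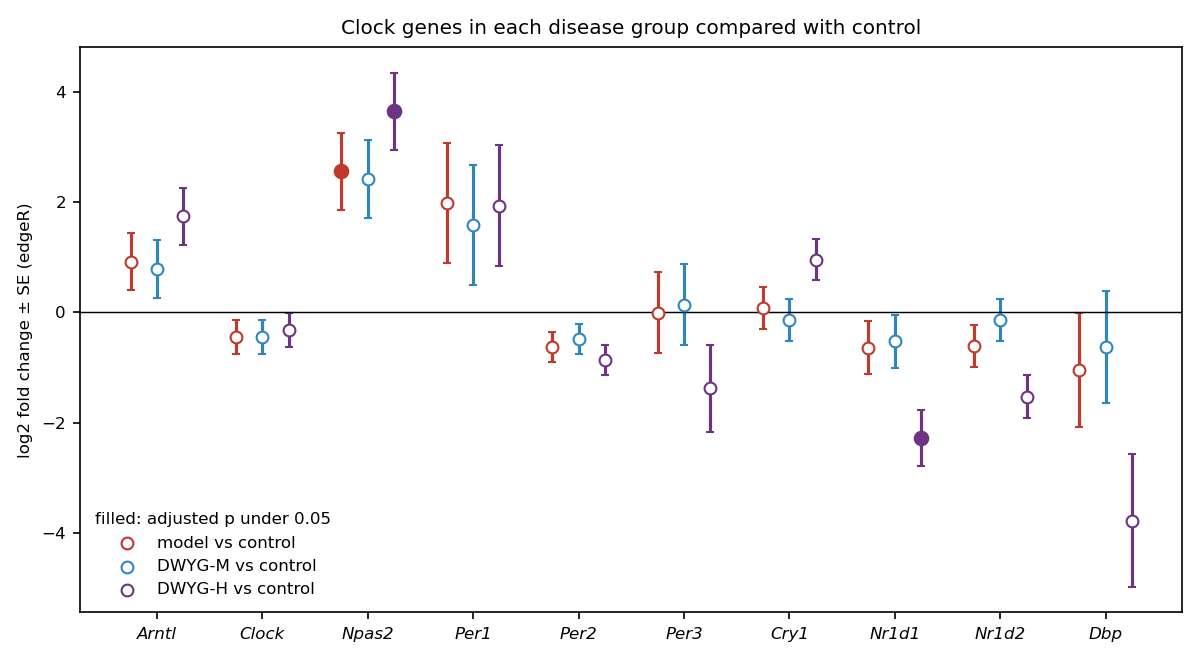
Log2 fold change (vertical axis, edgeR, bars 1 SE) of each clock gene in model, DWYG-M and DWYG-H against control; filled points have an adjusted p under 0.05. Npas2 is filled for model (2.56) and DWYG-H (3.65), Nr1d1 for DWYG-H (-2.28), and the bars of Dbp and Per1 are among the widest.

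The 2 doses were then set against the model, the comparison that bears on the treatment itself. DWYG-M against model gave 0 called clock genes by edgeR, where 0.00862% of all genes were called, and 0 with an unadjusted p under 0.05. The values ran from -0.41 ± 1.00 for Per1 to 0.48 ± 0.38 for Nr1d2 (edgeR, adjusted p = 0.909 and 0.659). The median absolute log2 fold change of the clock genes was 0.14 and that of all genes 0.21. Groups did not overlap for 1 clock gene (Per2), where 39.1% of all genes did not. The Per1 value changed sign without model liver 1 (0.42) or DWYG-M liver 2 (0.32), and was -0.92 without model liver 2 and -1.93 without DWYG-M liver 1. The Nr1d2 value was 0.06 without DWYG-M liver 2, 0.27 without model liver 2 and 0.80 without DWYG-M liver 1.

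DWYG-H against model also gave 0 called clock genes by edgeR, where 0% of all genes were called, and 4 with an unadjusted p under 0.05 (Nr1d1, Nr1d2, Cry1, Dbp). The 0% is for adjusted p. The share of all genes at the unadjusted threshold was not counted, so these 4 have no background beside them. Nr1d1 had a log2 fold change of -1.64 ± 0.50 (edgeR, adjusted p = 0.439) and passed with DESeq2 (-1.65, adjusted p = 0.0303). By edgeR, Dbp had -2.73 ± 1.18 (adjusted p = 0.588), Nr1d2 -0.92 ± 0.39 (adjusted p = 0.578), Cry1 0.88 ± 0.37 (adjusted p = 0.581), Npas2 1.09 ± 0.58 (adjusted p = 0.656) and Arntl 0.82 ± 0.50 (adjusted p = 0.715). The FPKM of 7 clock genes did not overlap, where 33.8% of all genes did not. The median absolute log2 fold change was 0.90 over the clock genes and 0.18 over all genes. The value for Dbp was -0.54 without model liver 2, the model liver with high Dbp, and in the same fit Arntl was 0.53 and Cry1 0.54. Without DWYG-H liver 2, Cry1 was 0.49 and Nr1d2 -0.46, and without DWYG-H liver 1 Nr1d2 was -1.57.

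Between the 2 doses, 0 clock genes were called by edgeR (adjusted p = 1 for each), where 0% of all genes were called. The same 4 genes had an unadjusted p under 0.05: Nr1d1 at -1.76 ± 0.50, Nr1d2 at -1.39 ± 0.39, Dbp at -3.15 ± 1.19 and Cry1 at 1.09 ± 0.37. The share of all genes at that unadjusted threshold was not counted here either. Without DWYG-M liver 2, Nr1d1 was -0.70 and Dbp -1.66, and without DWYG-H liver 2 Cry1 was 0.71. Groups did not overlap for 8 clock genes (Arntl, Npas2, Per2, Per3, Cry1, Nr1d1, Nr1d2, Dbp), where 26.6% of all genes did not. The median absolute log2 fold change was 1.16 over the clock genes and 0.11 over all genes. The DWYG-H livers serve in both of these comparisons.

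Of 13 other genes of the loop, 12 were in the table and 10 were tested. Hlf, a relative of Dbp, fell in the model by 1.31 on the log2 scale (SE 0.26, edgeR adjusted p = 0.0111), where 22.2% of all genes were called. It was the 1 gene of these called in any comparison by the main edgeR fit, with all 8 libraries and the 1 FPKM filter. Its FPKM was 8.88 and 11.3 in the control livers, 5.78 and 4.18 in the model livers, 6.04 and 9.69 with DWYG-M, and 6.52 and 6.72 with DWYG-H, and the model livers were the lowest. The call was lost without control liver 2 (-1.10, edgeR adjusted p = 0.0678) or model liver 2 (-1.18, adjusted p = 0.0546), and with limma on TPM (-0.63, adjusted p = 0.0615). The median log2 fold change of the 10 genes in the model was -0.38, beside -0.01 over all genes.

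Tef, the third of the D-box factors, had nearly the Dbp order: 17.3 and 32.7 FPKM in the control livers, 11.7 and 15.6 in the model livers, 12.3 and 27.4 with DWYG-M, and 9.7 and 6.46 with DWYG-H. Its log2 fold change was -1.16 ± 0.46 in the model (edgeR, adjusted p = 0.112) and -1.85 ± 0.47 in DWYG-H against control (adjusted p = 0.0545). With DESeq2 Tef was called in both (adjusted p = 0.0301 and 0.000315). In DWYG-H it was also called by edgeR with no low count filter (adjusted p = 0.0275), with 2 groups alone (0.0235), and without either model liver or either DWYG-M liver (0.0356 to 0.0488). Without control liver 2 the model value was -0.59. Nfil3, the D-box repressor, was lowest in control liver 2 and highest in DWYG-H liver 2, with 16.6 and 5.29 FPKM in control and 25.1 and 33.8 in DWYG-H. In DWYG-H against control, Nfil3 had a log2 fold change of 1.18 ± 0.46 (edgeR, adjusted p = 0.169), and it was called with limma on TPM (1.80, adjusted p = 0.0370). Without control liver 1 it was 2.09, and without control liver 2 it was 0.60.

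**Figure D5:**
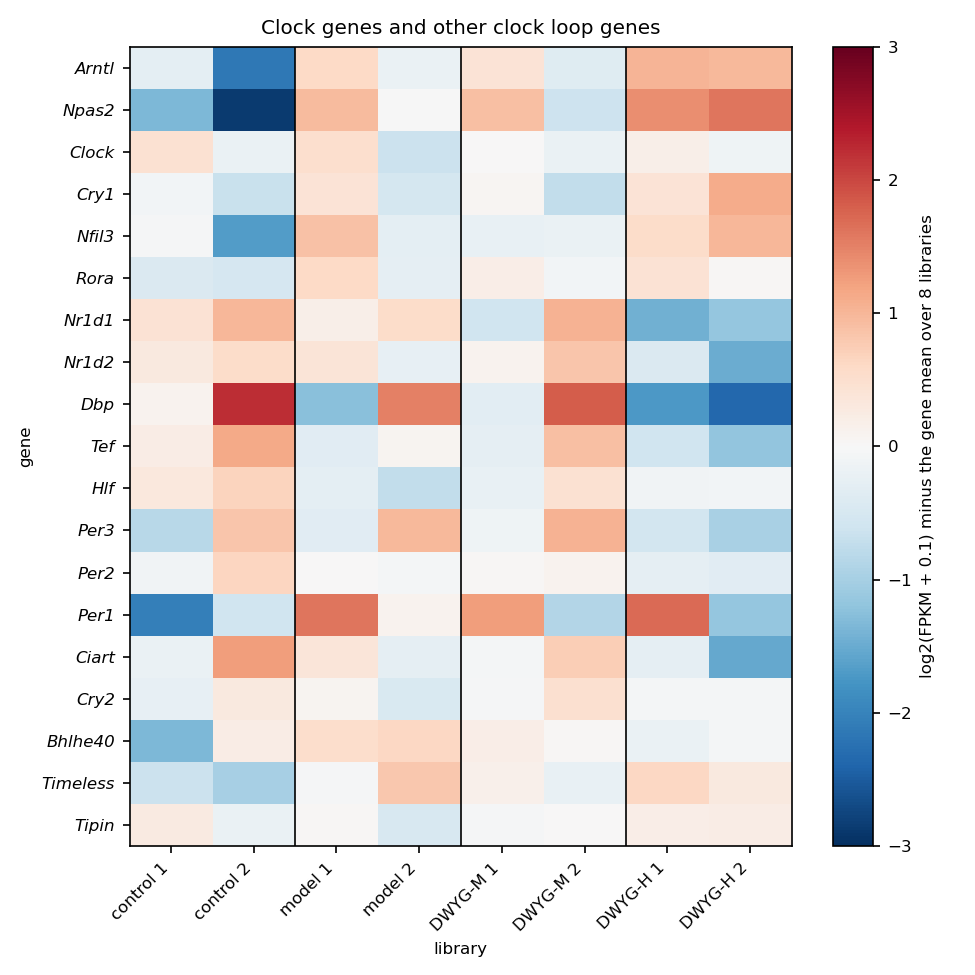
Log2(FPKM + 0.1) of the 10 clock genes and 9 of the 10 tested genes of the other loop list, each minus its own mean over the 8 libraries (colour scale from -3 to 3; rows genes, columns libraries, lines between groups). Arntl, Npas2, Cry1 and Nfil3 are red in the DWYG-H columns and blue in control 2, Dbp, Tef, Nr1d1 and Nr1d2 show the reverse, and Per1 is red in model 1, DWYG-M 1 and DWYG-H 1.

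Of 21 enzymes and adaptors that modify clock proteins, Csnk1e, a casein kinase that phosphorylates PER, was the 1 called in any comparison; in the model that is 1 of 21, where 22.2% of all genes were called. It rose in the model by a log2 fold change of 1.15 ± 0.19 (edgeR, adjusted p = 0.00535). It was at 1.76 and 1.92 FPKM in the control livers, 5.4 and 4.55 in the model livers, 3.26 and 2.89 with DWYG-M, and 3.4 and 3.12 with DWYG-H, so the livers of a group were close and the disease groups did not overlap control, as was the case for 59.1% (model) and 57.2% (each dose) of all genes. The median over the 21 genes was 0.03, beside -0.01 over all genes.

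Of 24 genes known for rhythmic levels in liver, 3 rose and 1 fell in the model, where 15.1% and 7.12% of all genes did. Rgs16, a regulator of G-protein signalling (5.86 ± 1.03, edgeR adjusted p = 0.00724), Cdkn1a, the p21 cell cycle inhibitor (4.71 ± 0.90, adjusted p = 0.01), and Fmo2, a flavin monooxygenase (1.16 ± 0.26, adjusted p = 0.0177), rose. Rgs16 had only 7 and 3 reads in the control livers and passed the filter through the other groups, so its fold change is imprecise. Elovl3, a fatty acid elongase (-4.40 ± 0.87, edgeR adjusted p = 0.0117), fell. In DWYG-H against control, Rgs16 (5.85 ± 1.03, edgeR adjusted p = 0.0159), Cdkn1a (4.43 ± 0.89, adjusted p = 0.0248) and Ppard, a lipid-sensing nuclear receptor (2.16 ± 0.40, adjusted p = 0.0177), rose, where 6.59% of all genes did. In DWYG-M against control, Rgs16 (6.86 ± 1.02, edgeR adjusted p = 0.0119) and Cdkn1a (4.02 ± 0.88, adjusted p = 0.0425) rose, where 4.35% of all genes did.

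The median log2 fold change of these 24 genes was 0.24 in model, -0.08 in DWYG-M and 0.05 in DWYG-H against control, beside medians of -0.01 over all genes. The model calls of Rgs16 and Cdkn1a were lost without either control liver (edgeR adjusted p between 0.0504 and 0.0837) with folds about as large, at 6.48 and 5.43 for Rgs16 and 5.03 and 4.43 for Cdkn1a. Those of Fmo2 (0.88, edgeR adjusted p = 0.117) and Elovl3 (-4.22, adjusted p = 0.0518) were lost without control liver 2, and Elovl3 was -6.62 without model liver 1. In each of these fits 1 arm held a single liver. The DWYG-H calls of all 3 genes were lost without either control liver (adjusted p between 0.0956 and 0.179), those of Rgs16 and Cdkn1a also without DWYG-H liver 1 (0.0575 and 0.0928), and that of Ppard without DWYG-H liver 2 (0.0800). The DWYG-M calls of Rgs16 and Cdkn1a were lost without either control liver (adjusted p between 0.0991 and 0.246). Without DWYG-M liver 1 the Cdkn1a value was 2.05 (adjusted p = 0.122). Its call was also lost, with values near the main one, without DWYG-H liver 1 (0.0597) or DWYG-H liver 2 (0.0568), and with a filter of 5 FPKM (0.0604), those 2 groups alone (0.0522) or limma on log2(FPKM + 1) (0.0581).

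The livers with high Per1 also had high levels of some genes known to answer to glucocorticoids or fasting, but not of others. Tsc22d3 (GILZ), a glucocorticoid target, was at 27 and 50.6 FPKM in the control livers, 75.5 and 14.5 in the model livers, 113 and 27.5 with DWYG-M, and 81.3 and 34.1 with DWYG-H. Mt2, a metallothionein, was at 4.32 and 1.74 FPKM in the control livers, 248 and 48 in the model livers, 232 and 49.5 with DWYG-M, and 313 and 36.6 with DWYG-H. For both, as for Per1, liver 1 of each DEN plus CCl4 group was the high one. These 2 genes were picked for that after their values were seen. Other such genes did not keep to it. In DWYG-H livers 1 and 2, Pdk4 was at 5.41 and 7.62 FPKM and Tat at 637 and 901. A link of Per1 to glucocorticoids or feeding was not tested.

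Of the 18 genes in the glucocorticoid and feeding list, 6 were called higher and 0 lower in the model than in control by edgeR, where 15.1% and 7.12% of all genes were, with a median of 0.76 beside -0.01 over all genes. Among them were Igfbp1, an insulin-repressed binding protein (7.75 ± 1.01, edgeR adjusted p = 0.00245), Irs2, an insulin receptor adaptor (1.93 ± 0.29, adjusted p = 0.00424), Mt1 (4.46 ± 0.83, adjusted p = 0.00896) and Pdk4, a kinase that restrains glucose oxidation (2.21 ± 0.42, adjusted p = 0.00987). The Mt1 call was lost without control liver 1 or 2 (adjusted p = 0.0599 and 0.0736). In this list 4 genes were called higher in DWYG-M and 5 in DWYG-H than in control, where 4.35% and 6.59% of all genes were, 0 lower, and 0 in either dose against the model.

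Immediate early genes were also higher in the model: 12 of 13 tested were called higher by edgeR, where 15.1% of all genes were, with a median of 3.58, among them Ier3 (4.21, edgeR adjusted p = 0.00133), Junb (2.03, adjusted p = 0.00143), Btg2 (3.84, adjusted p = 0.00167) and Egr1 (3.92, adjusted p = 0.00229). Ier3 had only 8 reads in each control liver and passed the filter through the other groups, so its fold change is imprecise. Fos was at 47.7 FPKM in model liver 1 and at 3.61 or below in every other liver, so it did not share the Per1 pattern. Of 10 temperature and heat shock genes, 1 was called, where 22.2% of all genes were, the cold-induced RNA-binding protein gene Rbm3, which rose in the model (0.79 ± 0.16, edgeR adjusted p = 0.0132); that call was lost without control liver 1 or 2 (adjusted p = 0.0531 and 0.102). The part of these signals in the clock values was not tested.

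Among all genes other than the 10, those most like Arntl over the 8 libraries, of 7047 with a mean of at least 5 FPKM, were Magi3 (Pearson's r 0.967), Tomm5 (0.966), Dapk1 (0.965), Ufsp2 (0.960) and Dtx4 (0.958). Those most like Dbp were Gstt2 (0.964), Tef (0.936), Klhdc7a (0.921), Map2k2 (0.891) and Ifrd2 (0.889). Gstt2, a glutathione S-transferase, ran from 20.7 FPKM in DWYG-H liver 2 to 39.3 in control liver 2. These genes were chosen as the highest of many and share the libraries, so the values are a description only.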

How the data were processed

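One table of the series was used, with 17164 genes and 8 libraries. Per the file headers it holds deposited read counts (some with fractions, so these are expected counts: 89.8% to 91.5% were whole within 0.005 per library), deposited FPKM and TPM values, and a deposited normalized signal (read counts times a factor per library), which was not used here. The submitters' processing notes name the build GRCm39. For the aligner, counting tool, annotation and use of strand, the sources used here give nothing. Of the IDs, 17052 were found in a RefSeq table of GRCm38.p6, 17038 with the same symbol.

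Expected counts were rounded and tested with edgeR 4.0.16 (glmQLFit, glmQLFTest, TMM scaling) in 1 model of 4 groups without a replicate block, with 4 residual degrees of freedom. SE were derived from the F statistic. The edgeR p-values set group differences against the spread between livers of the same group. That spread was pooled over the 4 groups, with each gene's estimate drawn towards those of other genes. Alternatives used DESeq2 1.42.0, limma 3.58.1, other filters, totals without Alb and Mup genes, 2 groups alone, a replicate block and each library left out. The edgeR script was tested on simulated data. Correlations used log2(FPKM + 0.1) and exact permutation over 8 libraries. Those permutation p-values treat the 8 libraries as exchangeable although they come from 4 groups, so they mix differences between groups with differences within them.

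All 10 clock genes are named. From the other lists, up to 4 tested genes with the smallest p in the model comparison are named, with any called loop or modifier gene, and the 5 genes most like Arntl and Dbp. Tef, Nfil3, Ppard, Tsc22d3, Mt2, Tat and Fos were named after their values were seen where they fall outside that rule. Of the loop list, 1 gene is counted but not reported here by name. The members and lists were chosen with earlier results of these data known.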

Additional observations from a re-analysis of the deposited data

How the results depend on the processing

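The number of clock genes called was 1 in model against control, and became 0 with a filter of 5 FPKM, which drops Npas2, 2 with limma on TPM, and 0 to 3 with single libraries left out. In DWYG-H against control it was 2, and became 5 with DESeq2 (Arntl, Nr1d2 and Dbp added), 1 with the 5 FPKM filter, 4 with limma on TPM, 4 with those 2 groups alone, and 0 to 4 with single libraries left out. In DWYG-M against control it was 0, and became 1 with DESeq2 and 0 to 1 with single libraries left out. In DWYG-H against model it was 0, and became 1 with DESeq2. It stayed at 0 in DWYG-M against model and between the doses in every alternative run. Among the fold changes printed for clock genes, those that changed sign were Per2 in model against control on TPM (0.0096), Dbp in the same comparison (-3.23 to 0.41 with libraries left out) and Per1 in DWYG-M against model (-1.93 to 0.42); none was a call with all libraries, and clock genes whose values are not printed were not examined for this. Npas2 was 1.15 in model and 1.91 in DWYG-H against control with limma on log2(FPKM + 1), a scale that understates low genes. Over all genes, called genes in model against control numbered 2582, and 812 to 5448 over the alternatives. FPKM and TPM values moved the median gene there by 0.21 to 0.50 on the log2 scale, and with TPM 97.5% of calls were higher, against 68.0%. In DWYG-H against control, calls over all genes went from 892 to 1385 with DESeq2, 3369 with limma on TPM and 1169 with 2 groups alone. The 5 FPKM filter left 454 of 7652. With DESeq2, calls over all genes went from 575 to 1007 in DWYG-M against control and from 0 to 120 in DWYG-H against model. In these settings, where more clock genes were called, more of all genes were too.

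Over all genes tested, differences between replicates correlated at -0.14 to 0.26 between groups, so the numbers were not taken as pairs. Some clock genes did line up in control, model and DWYG-M. Their log2 ratios of replicate 2 to 1 were 2.11, 2.80 and 2.15 for Dbp, 1.89, 1.46 and 1.28 for Per3, and -1.93, -0.79 and -0.77 for Arntl. In DWYG-H they were -0.67, -0.52 and -0.04. Per1 was 1.64 in control and negative in the other groups. Whether the numbers mark something that the livers share was not tested. A fit with the replicate block called 1 clock gene in model against control and 3 in DWYG-H against control, Arntl being added (1.94, edgeR adjusted p = 0.0340), and 0 in the other 4 comparisons. Over all genes that fit called 2682 in model against control and 856 in DWYG-H against control. With the numbers of DWYG-M crossed, an alternative chosen after seeing the data, DWYG-M against model had 0 called clock genes and 1 called gene in all. With 2 livers a group, a p that misses the threshold does not show that levels were alike; Npas2 in control rested on 26 and 5 reads.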
